A study of Caenorhabditis elegans with 9 samples.

Results

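The cuticlins and the related zona pellucida matrix proteins of Caenorhabditis elegans are secreted proteins of the cuticle and of other apical surface layers. Members were taken by a rule on gene names that uses no measured value. They were all protein-coding genes called cut- or cutl- and a number, together with noah-1, noah-2, let-653, fbn-1, dyf-7 and dpy-1. This gave 41 of the 28749 genes in the deposited table, of which 6 were cut- genes, 29 were cutl- genes and 6 were chosen by their own name. Expression was measured by RNA sequencing of polyA RNA from whole worms, in 3 groups of 3 libraries. WLZ1 carried wlzIs1 [snb-1p::Hsa-LRRK2 + lin15(+)], a transgene for wild-type human LRRK2, a kinase linked to Parkinson's disease. WLZ3 carried wlzIs3 [snb-1p::Hsa-LRRK2(G2019S)+ lin15(+)], the same kind of transgene with the G2019S form. N2, the Bristol wild type, carried no transgene. The snb-1 promoter is active in neurons, so the transgenes were not aimed at the epidermis that makes the cuticle. Each form of LRRK2 was represented by 1 strain, so an effect of the transgene, of its insertion and of the strain's history cannot be told apart. All worms were kept at 20 °C on Escherichia coli OP50. The sources used here give no age, stage or sex.

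A nematode is covered by a cuticle that the epidermis secretes anew at every moult. Collagens form most of it, and cuticlins form part of the residue that stays insoluble because its proteins are covalently cross-linked. Most cuticlins, the NOAH proteins, LET-653, FBN-1, DYF-7 and DPY-1 carry a zona pellucida domain, a module that lets secreted proteins join into filaments. Such proteins are usually made as membrane-bound precursors and released by a proprotein convertase. They shape the alae (ridges made by the lateral seam cells) and the first matrix laid down over the embryo. They also hold open narrow tubes such as the excretory duct and anchor the tips of sensory dendrites.

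Reads recovered from the deposited values came to between 38128734 and 53336536 per library, of which 14205 to 64140 fell on the 41 members. Of the members, 34 reached 1 FPKM (fragments per kilobase of exon, scaled to the depth of the library) in at least 3 libraries and were tested. The other 7 were cut-1, cutl-1, cutl-4, cutl-5, cutl-7, cutl-22 and cutl-27. Changes are differences of group means of log2(FPKM + 1), from a limma fit to 14862 genes, and a gene was called at a Benjamini-Hochberg adjusted p under 0.05 (two-sided). Because 1 is added before the logarithm, these changes are compressed for members near 1 FPKM. Nothing in the labels states that the 3 libraries of a group are from different cultures. P-values therefore reflect the spread among these libraries alone, and part or all of it could be technical. Large parts of the transcriptome differed between the strains, so each member count is read against the share of all tested genes that did the same. WLZ1 had 3949 higher and 6102 lower genes against N2, which became 5841 and 5064 with median-of-ratios scaling and 5270 and 4061 with quantile normalization. WLZ3 had 1976 higher and 3378 lower genes against N2, against 3007 and 3034, and 2364 and 2245, under those scalings. WLZ3 had 4393 higher and 1866 lower genes against WLZ1, against 3570 and 4205, and 2544 and 2770. WLZ1 replicate 2 was the lowest library of its group for 33 of the 41 members, and N2 replicate 1 was the lowest of its group for 31.

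**Figure D1:**
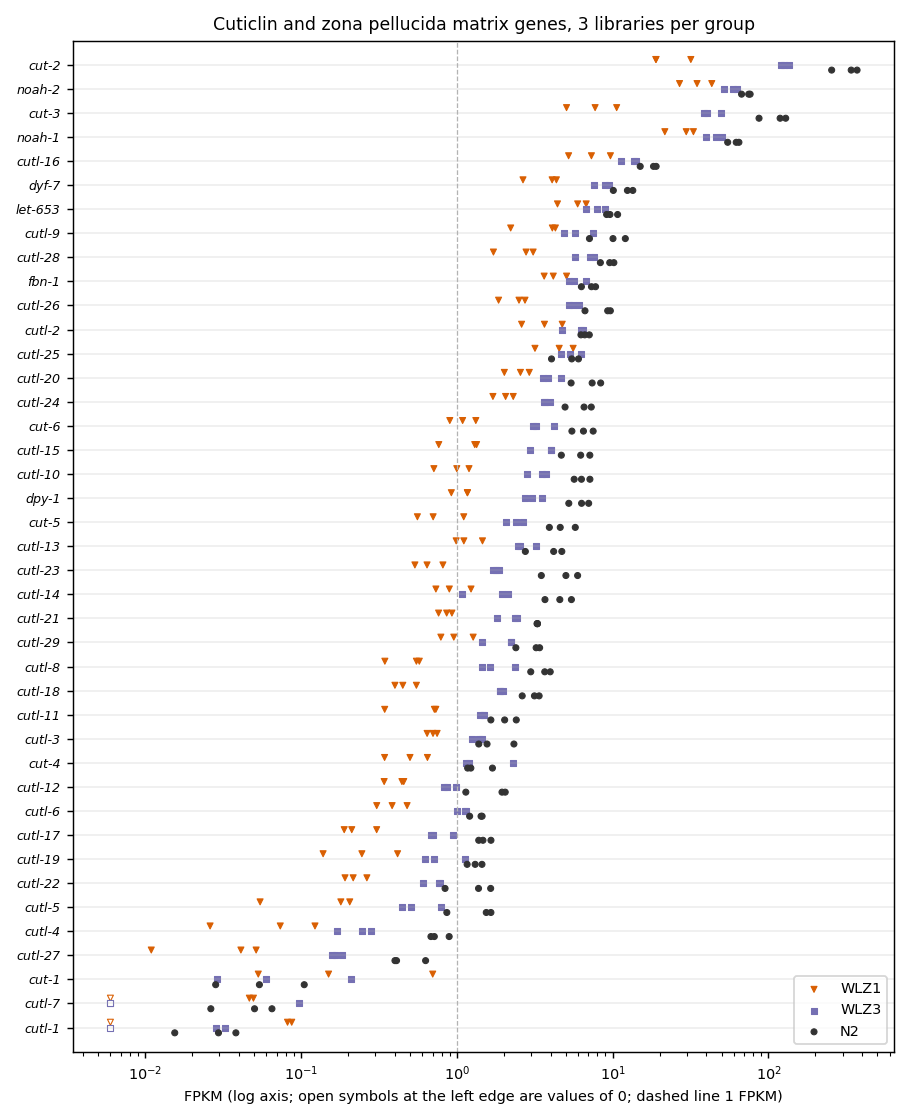
Level of each of the 41 members in every library, as FPKM on a log axis, with triangles for WLZ1, squares for WLZ3 and circles for N2, and members ordered by their mean over the 9 libraries. For 25 of the 34 tested members every WLZ1 library lies left of every WLZ3 library and every WLZ3 library left of every N2 library. The same order holds for 20.7% of all tested genes. Open symbols at the left edge are libraries listed at 0 for cutl-7 or cutl-1.

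As a set, the members were lowest in WLZ1, intermediate in WLZ3 and highest in N2. Their summed level was 151 ± 30.8 FPKM in WLZ1, 387 ± 23.9 FPKM in WLZ3 and 737 ± 115.2 FPKM in N2 (mean ± SD, n = 3 here and below). The highest WLZ1 sum, 169.6 FPKM, lay below the lowest WLZ3 sum, 364 FPKM, and the highest WLZ3 sum, 411 FPKM, lay below the lowest N2 sum, 607 FPKM. The 3 groups stood apart in that order, in every library, for 25 of the 34 tested members, against 20.7% of all genes tested. Without the 3 members, and all other genes, that reached the filter only through N2, this held for 22 of 31 members and 19.9% of genes. In whole worms, fewer cells of a type and less RNA per cell cannot be told apart. Between genes, levels spanned a wide range per length: in N2, cut-2 averaged 321 FPKM, noah-2 72.7 FPKM, dpy-1 6.20 FPKM and cutl-1 0.0278 FPKM.

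In WLZ1, 33 of the 34 tested members were lower than in N2, where 41.1% of all tested genes were lower. Left without cutl-12, cutl-17 and cutl-19, which passed the filter on low values only through their N2 libraries, the count was 30 of 31, beside 39.4% of all genes that did not pass in that way. Among tested members cut-2 and cut-3 fell most, while noah-1, noah-2, let-653 and fbn-1 fell less. Over the tested members the ratio of mean FPKM ran between 1.17-fold and 14.3-fold lower in WLZ1, with a median of 3.55-fold. The median change was -1.20 on the log2 scale, beside -0.13 over all genes tested. With median-of-ratios scaling the medians were -1.07 and 0.03, and with quantile normalization they were -0.825 and 0.07. Called and at least 2-fold lower on the log2(FPKM + 1) scale were 23 members, beside 15.1% of all genes. No member was called higher by limma, where 26.6% of all genes were, and none was higher at an unadjusted p under 0.05. With no filter, 37 of all 41 members were called lower in WLZ1, beside 26.9% of the 26089 genes above 0. Libraries of WLZ1 lay wholly below those of N2 for the same number of members, 37 of 41, beside 31.4% of those genes.

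**Figure D2:**
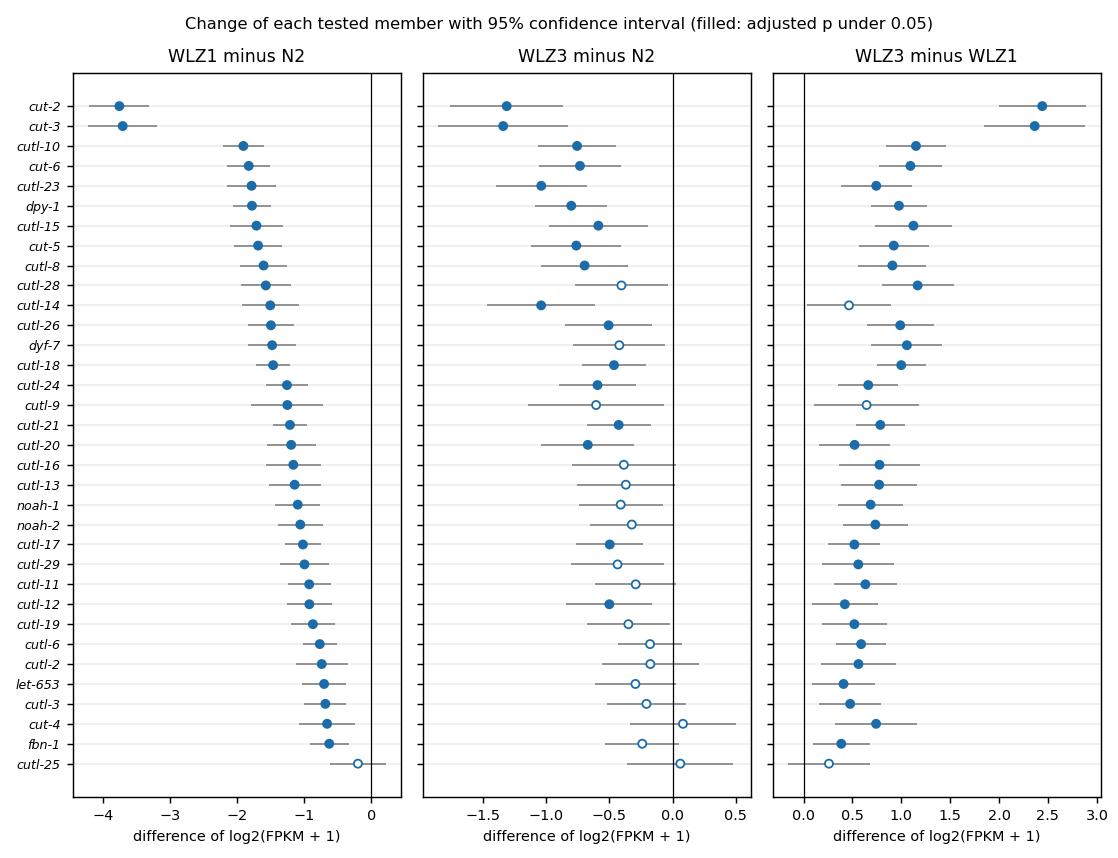
Change of each of the 34 tested members as a difference of log2(FPKM + 1), with its 95% confidence interval, on separate scales for the contrasts of WLZ1 with N2, of WLZ3 with N2, and of WLZ3 with WLZ1. Filled points are called: 33 members are lower in WLZ1, 17 are lower in WLZ3 and 31 are higher in WLZ3 than in WLZ1. Among all tested genes the same calls hold for 41.1%, 22.7% and 29.6%. The point of cutl-25 is open in all 3 panels.

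The cut- genes encode the cuticlins named first. cut-2 (chromosome V 13414949 to 13416064, plus strand, 2 exons, build WBcel235) encodes a component of the insoluble cuticle residue whose tyrosines can be cross-linked, and it was the most abundant member in N2. It had 18.97, 18.98 and 31.8 FPKM in the WLZ1 libraries, 126, 119.9 and 135 in the WLZ3 libraries and 254, 370.3 and 339.6 in the N2 libraries. The 3 groups did not overlap, and 2 of the WLZ1 libraries were nearly equal while replicate 3 was higher. Mean levels were 23.2 ± 7.39 FPKM in WLZ1 and 321 ± 60.1 FPKM in N2, 13.8-fold lower in WLZ1 (log2 change -3.76, SE 0.197, adjusted p = 1.88e-06). cut-3 (chromosome II 8445169 to 8446831, minus strand, 4 exons) encodes a zona pellucida cuticlin needed for the alae of the first larva. It had 7.72, 5.07 and 10.6 FPKM in the WLZ1 libraries, 40.5, 38.7 and 49.9 in the WLZ3 libraries and 87.0, 129 and 119 in the N2 libraries. Again the groups did not overlap, and WLZ1 was 14.3-fold lower than N2 (log2 change -3.71, SE 0.229, adjusted p = 3.63e-06). cut-2 and cut-3 lie on different chromosomes, and their ratio of FPKM was 3.07 ± 0.649 in WLZ1, 2.98 ± 0.232 in WLZ3 and 2.89 ± 0.0338 in N2 (exact permutation p = 0.7 for WLZ1 against N2 and 0.5 for WLZ3 against N2, two-sided). On the log2 scale the ratio differed by 0.07 and 0.04, and with 3 libraries a group the smallest p possible is 0.1.

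The other cut- genes were expressed at a few FPKM or less. cut-5 (chromosome X 10333858 to 10338200, minus strand, 9 exons), a zona pellucida cuticlin needed for alae of the first larva and the dauer larva, had 0.706, 0.559 and 1.11 FPKM in WLZ1, 2.08, 2.40 and 2.66 FPKM in WLZ3 and 3.93, 4.61 and 5.76 FPKM in N2. cut-6 (chromosome III 10911460 to 10916665, plus strand, 8 exons), also a zona pellucida cuticlin, had 1.09, 0.903 and 1.33 FPKM in WLZ1, 3.22, 3.09 and 4.20 FPKM in WLZ3 and 5.48, 7.50 and 6.50 FPKM in N2. Both stood in the same order of groups as cut-2, with no overlap. They were 6.03-fold and 5.87-fold lower in WLZ1 worms than in N2 (log2 changes -1.69 and -1.83, adjusted p = 2.48e-05 and 1.04e-05). Unlike cut-2 over cut-3, the ratio of cut-6 to cut-3 differed between groups without overlap. It was 0.148 ± 0.0273 in WLZ1, 0.0812 ± 0.002605 in WLZ3 and 0.05865 ± 0.004149 in N2. On the log2 scale it exceeded N2 by 1.32 and 0.47 (exact permutation p = 0.1 each, the smallest possible, and 0.15 adjusted over 15 ratio comparisons). cut-4 (chromosome II 10436136 to 10440087, plus strand, 7 exons) had 0.501, 0.344 and 0.649 FPKM in WLZ1, 2.29, 1.20 and 1.15 FPKM in WLZ3 and 1.70, 1.23 and 1.18 FPKM in N2. All WLZ1 libraries lay below all others, but WLZ3 and N2 overlapped, with WLZ3 replicate 1 the highest of the 9. Its change was -0.66 in WLZ1 (adjusted p = 0.0114), a call lost with quantile normalization (-0.40, adjusted p = 0.0778). cut-1 (chromosome II 11269122 to 11271660, plus strand, 4 exons), the cuticlin of dauer alae, had 0.701, 0.0533 and 0.151 FPKM in WLZ1, 0.0290, 0.0594 and 0.209 FPKM in WLZ3 and 0.105, 0.0284 and 0.0542 FPKM in N2. These values rest on 56, 4 and 12 reads in WLZ1, 2, 4 and 16 in WLZ3 and 6, 2 and 4 in N2. The groups overlapped, WLZ1 replicate 1 stood above the other 8 libraries, and cut-1 was too low to be tested. In a fit with no filter its change was 0.26 in WLZ1 (adjusted p = 0.252).

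The NOAH proteins belong to the early matrix over the embryo and to the moulting cuticle, and both are needed for an intact epidermis. noah-1 (chromosome I 5874416 to 5878958, minus strand, 8 exons) had 33.0, 21.6 and 29.7 FPKM in the WLZ1 libraries, 39.6, 50.1 and 46.4 in the WLZ3 libraries and 54.8, 62.1 and 64.6 in the N2 libraries. noah-2 (chromosome IV 14091254 to 14096626, plus strand, 5 exons) had 43.3, 26.9 and 34.8 FPKM in the WLZ1 libraries, 52.1, 62.9 and 59.1 in the WLZ3 libraries and 67.2, 74.7 and 76.3 in the N2 libraries. For both genes the 3 groups did not overlap, and WLZ1 replicate 2 was the lowest of the 9 libraries. noah-1 was 2.15-fold lower in WLZ1 than in N2 worms (log2 change -1.10, SE 0.146, adjusted p = 0.000185) and noah-2 was 2.08-fold lower (log2 change -1.06, SE 0.147, adjusted p = 0.000231). The ratio of noah-2 to noah-1 was 1.24 ± 0.069 in WLZ1, 1.28 ± 0.0318 in WLZ3 and 1.20 ± 0.024 in N2. On the log2 scale WLZ3 exceeded N2 by 0.09 (exact permutation p = 0.1, the smallest possible, and 0.15 adjusted over 15 ratio comparisons).

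The remaining members chosen by name have varied roles. let-653 (chromosome IV 11885613 to 11891082, plus strand, 10 exons), which lines the excretory duct and pore and the vulval lumen, had 6.77, 4.43 and 5.97 FPKM in WLZ1, 6.76, 8.89 and 7.97 FPKM in WLZ3 and 9.62, 10.8 and 9.16 FPKM in N2. fbn-1 (chromosome III 7625386 to 7641078, plus strand, 25 exons), a fibrillin-related matrix protein of the embryo, pharynx and moulting cuticle, had 5.07, 3.64 and 4.16 FPKM in WLZ1, 5.27, 6.78 and 5.65 FPKM in WLZ3 and 6.31, 7.78 and 7.32 FPKM in N2. For both genes every WLZ1 library lay below every N2 library, while WLZ3 replicate 1 of let-653 reached into the WLZ1 range and WLZ3 replicate 2 of fbn-1 into the N2 range. let-653 was 1.72-fold lower in WLZ1 than in N2 worms (log2 change -0.70, adjusted p = 0.002) and fbn-1 1.66-fold lower (log2 change -0.63, adjusted p = 0.00222). Both calls were lost with quantile normalization, where the changes were -0.14 (adjusted p = 0.377) and -0.046 (adjusted p = 0.754). dyf-7 (chromosome X 9698659 to 9701732, plus strand, 11 exons), which anchors the tips of sensory dendrites while their cell bodies move away, had 4.36, 2.66 and 4.09 FPKM in WLZ1, 7.62, 9.00 and 9.44 FPKM in WLZ3 and 10.1, 12.4 and 13.5 FPKM in N2. dpy-1 (chromosome III 2034988 to 2048007, minus strand, 20 exons), needed for normal body length, had 1.17, 0.923 and 1.17 FPKM in WLZ1, 2.75, 3.06 and 3.53 FPKM in WLZ3 and 5.24, 7.02 and 6.33 FPKM in N2. For dyf-7 and dpy-1 the 3 groups stood apart, and the WLZ1 libraries of dpy-1 were all close to 1 FPKM. dyf-7 was 3.24-fold lower in WLZ1 than in N2 worms (log2 change -1.48, adjusted p = 5.66e-05), and dpy-1 5.69-fold lower (log2 change -1.78, adjusted p = 6.93e-06).

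The cutl- genes, named for their likeness to cuticlins, made up most of the members, and few have a known role. Of the 29, 23 were tested, and 22 were lower in WLZ1 than in N2, beside 41.1% of all tested genes. Without the 3 that passed only through N2 the count was 19 of 20. The median change of those tested was -1.19. cutl-16 (chromosome II 6441428 to 6443994, plus strand, 7 exons) was the highest of them, with 9.69, 5.22 and 7.32 FPKM in WLZ1, 11.4, 13.8 and 14.1 FPKM in WLZ3 and 15.04, 18.3 and 19.03 FPKM in N2. cutl-9 (chromosome II 10622265 to 10625946, plus strand, 7 exons) had 4.29, 2.22 and 4.11 FPKM in WLZ1, 4.88, 5.70 and 7.43 FPKM in WLZ3 and 7.11, 12.1 and 10.1 FPKM in N2. The groups of cutl-16 stood apart, and those of cutl-9 overlapped between WLZ3 and N2. Their changes in WLZ1 were -1.16 and -1.25 (adjusted p = 0.000461 and 0.00138).

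cutl-28 and cutl-26 are neighbours on chromosome IV, 10358 bases and 1 protein-coding gene apart and on opposite strands. cutl-28 (chromosome IV 684497 to 688340, plus strand, 12 exons) had 2.79, 1.72 and 3.09 FPKM in WLZ1, 5.78, 7.13 and 7.66 FPKM in WLZ3 and 8.35, 10.2 and 9.59 FPKM in N2. cutl-26 (chromosome IV 698699 to 707735, minus strand, 8 exons) had 2.51, 1.86 and 2.74 FPKM in WLZ1, 5.25, 5.58 and 6.13 FPKM in WLZ3 and 6.65, 9.68 and 9.30 FPKM in N2. Their levels were similar per length in each library, and the groups of both stood apart. cutl-28 was 3.70-fold and cutl-26 3.61-fold lower in WLZ1 worms than in N2 (log2 changes -1.57 and -1.496, adjusted p = 4.34e-05 and 3.68e-05). cutl-20 (chromosome I 963692 to 969457, minus strand, 7 exons) had 2.56, 2.02 and 2.92 FPKM in WLZ1, 3.85, 3.56 and 4.65 FPKM in WLZ3 and 5.42, 8.38 and 7.39 FPKM in N2. cutl-24 (chromosome IV 165077 to 169980, plus strand, 9 exons) had 2.06, 1.71 and 2.30 FPKM in WLZ1, 3.98, 3.65 and 3.68 FPKM in WLZ3 and 4.96, 7.30 and 6.56 FPKM in N2. The 3 groups stood apart for cutl-20 and cutl-24 too, with changes in WLZ1 of -1.19 and -1.26 (adjusted p = 0.000203 and 5.47e-05). cutl-20 shares 221 bases, 17.3% of its exons, with shc-1 on the same strand, so reads there cannot be given to either gene with certainty. shc-1 itself changed by -0.31 in WLZ1 (adjusted p = 0.0372).

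Of the more abundant cutl- genes, cutl-2 and cutl-25 differed least from N2. cutl-2 (chromosome II 9721758 to 9724673, minus strand, 6 exons) had 4.75, 2.61 and 3.65 FPKM in WLZ1, 4.74, 6.23 and 6.49 FPKM in WLZ3 and 6.27, 7.09 and 6.63 FPKM in N2. Its WLZ1 libraries lay below those of N2 but reached into the range of WLZ3, and the change was -0.74 (adjusted p = 0.00402), a call lost with quantile normalization (-0.17, adjusted p = 0.384). cutl-25 (chromosome III 3042593 to 3047140, minus strand, 9 exons) had 5.58, 3.18 and 4.54 FPKM in WLZ1, 5.36, 6.23 and 4.70 FPKM in WLZ3 and 4.06, 6.04 and 5.47 FPKM in N2. Its 3 groups overlapped, and WLZ1 replicate 2 was the lowest library. The change in WLZ1 was -0.20, with a 95% confidence interval of -0.619 to 0.223 (adjusted p = 0.366), and it turned to 0.38 with quantile normalization (adjusted p = 0.0655). cutl-25 was the 1 tested member not called in any of the 3 contrasts. Of the 15 other tested cutl- genes, cutl-10 (chromosome I 11294576 to 11297206, minus strand, 8 exons) had the largest change in WLZ1 on the log2(FPKM + 1) scale, -1.91 (adjusted p = 7.18e-06). It averaged 0.971 ± 0.244 FPKM in WLZ1, 3.37 ± 0.486 in WLZ3 and 6.38 ± 0.744 in N2. By the ratio of mean FPKM, cutl-23 and cutl-8 were lower by more (7.24-fold and 7.22-fold, against 6.57-fold for cutl-10).

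At the lower edge of the filter, cutl-12, cutl-17 and cutl-19 passed through their N2 libraries, so values below 1 FPKM elsewhere follow from the filter. They averaged 0.415, 0.236 and 0.268 FPKM in WLZ1, 0.896, 0.775 and 0.822 in WLZ3 and 1.71, 1.505 and 1.31 in N2. Under the filter, cutl-22 averaged 0.225 ± 0.0372 FPKM in WLZ1, 0.721 ± 0.0942 in WLZ3 and 1.29 ± 0.412 in N2. cutl-5 averaged 0.147 ± 0.0809, 0.581 ± 0.183 and 1.36 ± 0.429 FPKM in WLZ1, WLZ3 and N2. Both kept the order WLZ1, WLZ3, N2 in every library. The low members cutl-4 and cutl-27 are given by library, chosen after their values were seen. cutl-4 had 0.0738, 0.0262 and 0.123 FPKM in WLZ1, 0.171, 0.248 and 0.283 FPKM in WLZ3 and 0.894, 0.683 and 0.718 FPKM in N2, from 2 to 54 reads a library. cutl-27 had 0.0412, 0.0110 and 0.0516 FPKM in WLZ1, 0.167, 0.159 and 0.183 FPKM in WLZ3 and 0.411, 0.631 and 0.402 FPKM in N2, from 2 to 108 reads. These too stood apart in all 3 groups, and with no filter both were called lower in WLZ1 (adjusted p = 0.000151 for cutl-4 and 0.000525 for cutl-27). cutl-27 lies 1478 bases before let-653 on the same strand with no protein-coding gene between them. Its WLZ1 values lie near what 6 reads are worth, 0.0309 to 0.0433 FPKM, so no exact fold is given. cutl-7 and cutl-1 never had more than 7 reads in a library. cutl-7 was listed at 0 in WLZ1 replicate 1 and in WLZ3 replicates 1 and 3, and cutl-1 in WLZ1 replicate 3 and WLZ3 replicate 1. A count of 0 there allows up to 3 fragments (6 reads), between 0.07 and 0.115 FPKM over the 2 genes and 9 libraries, counting error only, so no difference was detectable at this depth.

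In WLZ3, 17 of the 34 tested members were lower than in N2, beside 22.7% of all tested genes. Without the members that passed only through N2 the count was 15 of 31, beside 21.4% of the genes left. By kind of member, 4 of 5 tested cut- genes and 12 of 23 tested cutl- genes were lower, against 1 of the 6 members chosen by name, dpy-1. That difference between kinds was not tested. No member was called higher by limma, where 13.3% of all genes were, or was higher at an unadjusted p under 0.05, and 23 were lower at that unadjusted threshold. The median change was -0.45, beside -0.02 over all genes tested. With median-of-ratios scaling these were -0.40 and 0.03, and with quantile normalization -0.31 and 0.03. WLZ3 libraries lay wholly below those of N2 for 31 of the 41 members, beside 21% of genes above 0. With no filter, 18 of 41 were called lower, beside 12.3% of genes. Both comparisons with N2 use the same N2 libraries and are not independent of each other. The count fell to 11 of 32 without N2 replicate 2 or without N2 replicate 3, beside 1985 of 14479 and 2087 of 14507 genes. It was 12 of 34 with quantile normalization, beside 2245 of 14862 genes.

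On the log2(FPKM + 1) scale cut-3 and cut-2 again changed most, while by the ratio of mean FPKM cutl-23 and cutl-14 were slightly lower still (2.70-fold and 2.65-fold). cut-3 averaged 43.0 ± 6.01 FPKM in WLZ3 and 112 ± 21.9 FPKM in N2, 2.59-fold lower in WLZ3 (log2 change -1.34, SE 0.229, adjusted p = 0.00372). cut-2 averaged 127 ± 7.64 FPKM in WLZ3 and 321 ± 60.1 FPKM in N2, 2.53-fold lower (log2 change -1.315, SE 0.197, adjusted p = 0.00247). With cutl-14 (-1.04, adjusted p = 0.00463) and cutl-23 (-1.04, adjusted p = 0.00266), both named after their values were seen, these were the 4 members called at least 2-fold lower on the log2(FPKM + 1) scale, where 1.81% of all genes were. cutl-14 averaged 1.73 ± 0.561 FPKM in WLZ3 and 4.57 ± 0.880 FPKM in N2, with its WLZ3 libraries at 1.96, 1.08 and 2.13 FPKM and below all N2 libraries. cutl-23 averaged 1.78 ± 0.0838 FPKM in WLZ3 and 4.82 ± 1.25 FPKM in N2, and its groups did not overlap. cut-5 and cut-6 changed by -0.76 and -0.73 (adjusted p = 0.00762 and 0.00609), and dpy-1 by -0.80 (adjusted p = 0.00283). cutl-20, cutl-24 and cutl-26 were lower as well (-0.67, -0.595 and -0.51, adjusted p = 0.0135, 0.011 and 0.029). The call of cutl-26 was lost in 6 of the alternatives run, with adjusted p between 0.0547 and 0.131 there, and that of cutl-20 without N2 replicate 2 (adjusted p = 0.0537).

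Several abundant members did not pass the threshold in WLZ3. noah-1 had a log2 change of -0.41 (95% confidence interval -0.742 to -0.079, adjusted p = 0.055) and noah-2 of -0.32 (-0.656 to 0.010, adjusted p = 0.114). For both, every WLZ3 library lay below every N2 library. Fitted with only WLZ3 and N2, noah-1 and noah-2 were called lower (adjusted p = 0.0204 and 0.0226), as were dyf-7, cutl-16 and cutl-28 (adjusted p = 0.0367, 0.0386 and 0.0375). In the fit of all groups dyf-7 stood at -0.42 (-0.786 to -0.058, adjusted p = 0.0678), cutl-16 at -0.39 (-0.798 to 0.027, adjusted p = 0.125) and cutl-28 at -0.405 (-0.774 to -0.036, adjusted p = 0.0807). let-653 had a log2 change of -0.29 (-0.617 to 0.029, adjusted p = 0.134) and fbn-1 of -0.24 (-0.533 to 0.053, adjusted p = 0.172). cutl-9 stood at -0.61 (-1.143 to -0.068, adjusted p = 0.0742) and cutl-2 at -0.18 (-0.561 to 0.208, adjusted p = 0.435), the last turning to 0.05 with quantile normalization. The tested members with values above N2 were cut-4 (0.08, -0.338 to 0.504, adjusted p = 0.744) and cutl-25 (0.06, -0.359 to 0.483, adjusted p = 0.812). cut-4 turned to -0.12 without WLZ3 replicate 1, its highest library, and cutl-25 to -0.03 without WLZ3 replicate 2 and -0.08 without N2 replicate 1.

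Set directly against WLZ1, WLZ3 was higher for 31 of the 34 tested members, where 29.6% of all tested genes were higher. Without the members that passed only through N2 the count was 28 of 31, beside 29.8% of the genes left. No member was called lower by limma, where 12.6% of all genes were, and none was lower at an unadjusted p under 0.05. The median change was 0.74, beside 0.10 over all genes tested. With median-of-ratios scaling 28 members were higher, with medians of 0.63 and -0.02, and with quantile normalization 23 were higher, with medians of 0.55 and -0.025. WLZ3 libraries lay wholly above those of WLZ1 for 34 of the 41 members, beside 25.4% of genes above 0. With no filter, 27 of 41 were called higher, beside 15.5% of genes, and in the filtered fit 7 were called at least 2-fold higher, beside 4.82%. Without WLZ1 replicate 2, the lowest library of its group for most members, 23 of 34 members were called higher, beside 3494 of 14594 genes. In that fit 33 members were lower in WLZ1 than in N2, beside 5753 genes. There, 23 members were lower in WLZ3 than in N2, beside 3494 genes.

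cut-2 and cut-3 differed most between the strains, 5.47-fold and 5.52-fold higher in WLZ3 compared with WLZ1 (log2 changes 2.44 and 2.36, adjusted p = 5.14e-05 and 0.00013). Also higher were cutl-28 (1.17, adjusted p = 0.000806), cut-6 (1.09, adjusted p = 0.000586) and cut-5 (0.92, adjusted p = 0.00213). dyf-7 was 2.34-fold and dpy-1 2.86-fold higher in WLZ3 (log2 changes 1.06 and 0.98, adjusted p = 0.00122 and 0.000545). noah-2 and noah-1 were 1.66-fold and 1.61-fold higher (0.735 and 0.69, adjusted p = 0.00457 and 0.00615). cut-4, which did not pass the threshold between WLZ3 and N2, was 3.10-fold higher in WLZ3 compared with WLZ1 (0.74, adjusted p = 0.0126). let-653 (0.41, adjusted p = 0.0456), fbn-1 (0.39, adjusted p = 0.0397), cutl-2 (0.56, adjusted p = 0.0269) and cutl-20 (0.52, adjusted p = 0.0298) lost their calls with no filter and with quantile normalization, among other alternatives. Not called were cutl-9 (0.645, 0.107 to 1.182, adjusted p = 0.055), cutl-14 (0.465, 0.038 to 0.891, adjusted p = 0.0751) and cutl-25 (0.26, -0.161 to 0.681, adjusted p = 0.286).

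**Figure D3:**
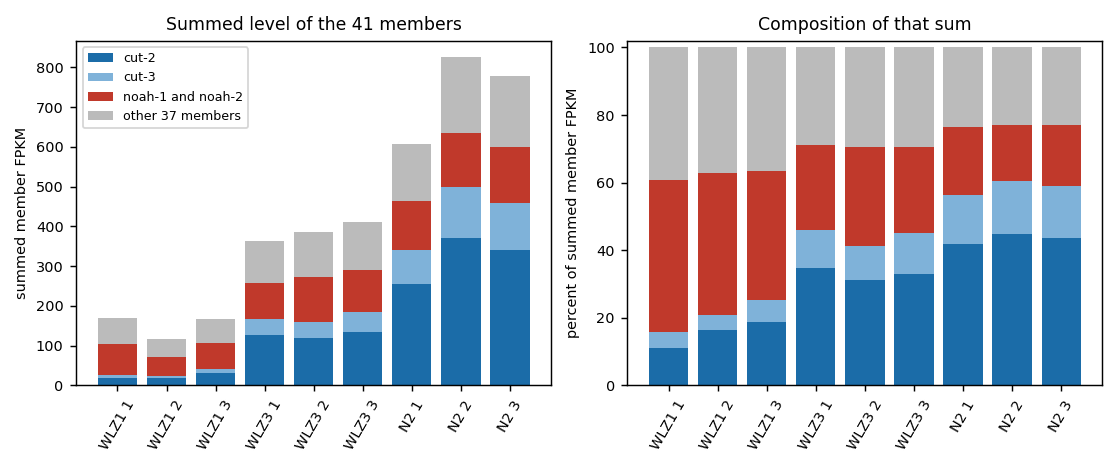
Summed level of the 41 members in each library as FPKM (left) and the same sum as percent (right), split into cut-2, cut-3, noah-1 with noah-2, and the other 37 members. In WLZ1 noah-1 and noah-2 hold the largest share of these parts, 38.4% to 45% of the sum, while in N2 cut-2 holds 41.9% to 44.9%.

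Because the members did not change by the same factor, the makeup of the set differed between groups. cut-2 held 15.5% ± 3.94 of the summed member FPKM in WLZ1, 32.9% ± 1.82 in WLZ3 and 43.5% ± 1.47 in N2. noah-1 and noah-2 together held 41.8% ± 3.32 in WLZ1, 26.7% ± 2.27 in WLZ3 and 18.3% ± 1.78 in N2. The other 37 members held 37.6% ± 1.48 in WLZ1, 29.25% ± 0.306 in WLZ3 and 23.2% ± 0.382 in N2. For each of these shares the 3 groups did not overlap. The ratio of noah-2 to cut-2 within a library was 1.60 ± 0.613 in WLZ1, 0.458 ± 0.0589 in WLZ3 and 0.2302 ± 0.0317 in N2. On the log2 scale it exceeded N2 by 2.74 in WLZ1 and by 0.995 in WLZ3 (exact permutation p = 0.1 each, the smallest possible with 3 libraries a group, and 0.15 adjusted over 15 ratio comparisons). A ratio within a library is not altered by a single scaling factor per library, such as that of median-of-ratios scaling, whereas quantile normalization can alter it. By kind, the 5 tested cut- genes had means 2.75-fold (cut-4) to 14.3-fold (cut-3) lower in WLZ1 than in N2, and the 6 members chosen by their own name 1.66-fold (fbn-1) to 5.69-fold (dpy-1) lower, so the ranges overlapped. dpy-1 fell more than noah-2: the ratio of dpy-1 to noah-2 was 0.0317 ± 0.00404 in WLZ1, 0.0537 ± 0.00556 in WLZ3 and 0.0849 ± 0.00825 in N2, with no overlap between groups (exact permutation p = 0.1 for each pair of groups).

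**Figure D4:**
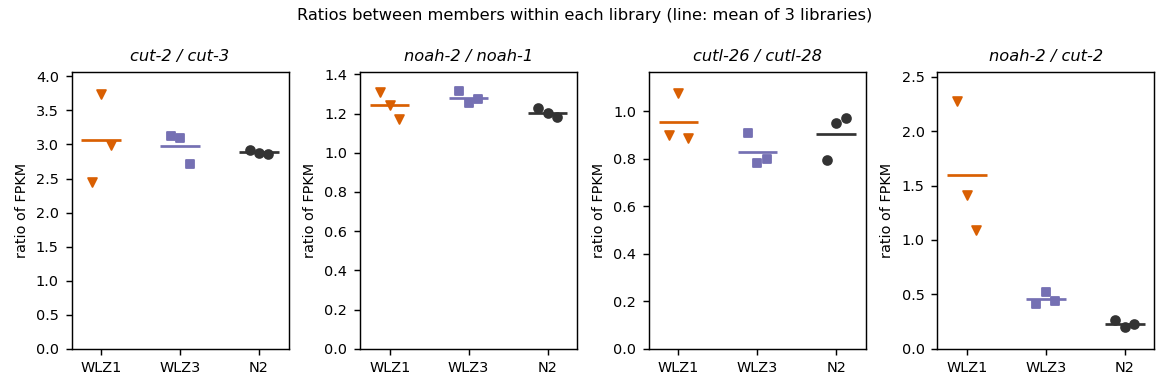
Ratio of FPKM between pairs of members within each library, with a line at the mean of 3 libraries, for cut-2 over cut-3, noah-2 over noah-1, cutl-26 over cutl-28 and noah-2 over cut-2. In WLZ1, WLZ3 and N2, cut-2 over cut-3 averages 3.07, 2.98 and 2.89, noah-2 over noah-1 averages 1.24, 1.28 and 1.20 and cutl-26 over cutl-28 averages 0.956, 0.830 and 0.906, whereas noah-2 over cut-2 averages 1.60 in WLZ1, 0.458 in WLZ3 and 0.2302 in N2.

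Context genes were taken as 5 lists, chosen by what the genes or their families are known to do. Not every listed gene is known to act with the members. For comparison, 41.1% of all tested genes were lower in WLZ1 than in N2 and 22.7% in WLZ3 (medians -0.13 and -0.02). Lipocalins and leucine-rich repeat proteins build the same early matrix as LET-653 and NOAH-1. Of these, 13 of 14 were lower in WLZ1 than in N2 (median -1.22) and 8 of 14 in WLZ3 (median -0.51). lpr-3, a matrix lipocalin, averaged 16.1 FPKM in WLZ1, 37.7 in WLZ3 and 58.5 in N2 (log2 changes against N2 -1.83 and -0.62, adjusted p = 2.96e-05 and 0.0258). sym-1, a leucine-rich repeat protein of the epidermal matrix, averaged 33.5 FPKM in WLZ1, 47.0 in WLZ3 and 59.6 in N2 (-0.84 and -0.34, adjusted p = 0.00079 and 0.096). egg-6, a leucine-rich repeat protein of the excretory duct that is also known from the eggshell, was higher in both strains, at 124 FPKM in WLZ1, 109 in WLZ3 and 93.1 in N2 (0.40 and 0.22, adjusted p = 0.00019 and 0.0144). Of 11 proprotein convertases and astacin proteases, 8 were lower in WLZ1 (median -0.92) and 5 in WLZ3 (median -0.32), or 7 and 4 of 10 without nas-38, which passed the filter only through N2. egl-3, a proprotein convertase known for neuropeptide processing, averaged 20.5 FPKM in WLZ1, 24.6 in WLZ3 and 42.9 in N2 (-1.03 and -0.78, adjusted p = 7.35e-06 and 0.000501). The convertase gene bli-4, needed for an intact cuticle, stood at 31.1 FPKM in WLZ1, 31.5 in WLZ3 and 32.5 in N2, with changes of -0.06 (SE 0.04) and -0.04 (SE 0.04) that were not called (adjusted p = 0.2 and 0.412), and these turned to 0.13 and 0.01 with median-of-ratios scaling. aex-5, another proprotein convertase, was higher in both strains, at 28.3 FPKM in WLZ1, 46.5 in WLZ3 and 7.01 in N2 (1.88 and 2.58, adjusted p = 1.66e-06 and 1.9e-06).

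Of 11 tested genes of cuticle cross-linking and collagen modification, 10 were lower in WLZ1 (median -1.09) and 7 in WLZ3 (median -0.47). The shares of all tested genes, here and for the next lists, were 41.1% and 22.7%. pdi-2, a disulfide isomerase that serves collagen modification, averaged 307 FPKM in WLZ1, 378 in WLZ3 and 426 in N2 (-0.47 and -0.17, adjusted p = 0.00029 and 0.0799). The peroxidase gene skpo-1 was not called in either strain, at 164 FPKM in WLZ1, 177 in WLZ3 and 170 in N2 (-0.05 and 0.06, adjusted p = 0.314 and 0.362), and the first turned to 0.14 with median-of-ratios scaling. Moulting genes were lower for 15 of 16 in WLZ1 (median -1.33) and 13 of 16 in WLZ3 (median -0.54). mlt-8, a gene expressed with the moult, averaged 20.9 FPKM in WLZ1, 44.4 in WLZ3 and 65.0 in N2 (-1.63 and -0.54, adjusted p = 4.42e-05 and 0.0358). The moulting regulator nhr-23, a nuclear receptor, stood at 22.65 FPKM in WLZ1, 21.6 in WLZ3 and 20.6 in N2 (0.13 and 0.07, adjusted p = 0.0579 and 0.347). All 10 tested genes of the epidermal attachment structures were lower in WLZ1 (median -1.29) and 9 were in WLZ3 (median -0.54). Among them, the intermediate filament gene ifb-1 averaged 25.5 FPKM in WLZ1, 42.2 in WLZ3 and 70.4 in N2 (-1.43 and -0.72, adjusted p = 2.04e-06 and 0.000722).

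**Figure D5:**
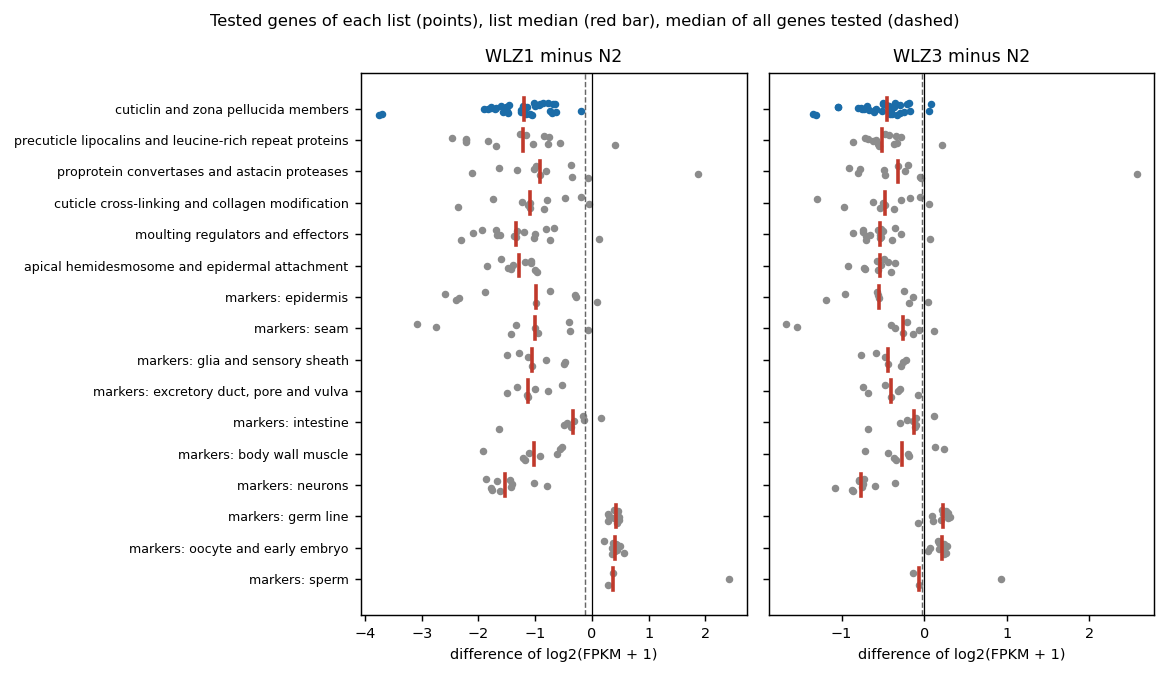
Change of each tested gene (points) and the median (red bar) of the 34 members, of 5 lists of context genes and of 10 cell type marker lists, as differences of log2(FPKM + 1) for WLZ1 minus N2 and WLZ3 minus N2, with a dashed line at the median of all genes tested. The members' medians are -1.20 and -0.45, neuron markers lie at -1.53 and -0.77, and germ line markers at 0.42 and 0.22.

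Marker lists differed in direction: those of epidermis, seam, glia, excretory duct and vulva, muscle, neurons and, by less, intestine had medians below that of all genes in both strains, while germ line and oocyte markers were higher. Of all tested genes, 41.1% were lower in WLZ1 than in N2 and 22.7% were lower in WLZ3. Epidermis markers were lower for 8 of 9 in WLZ1 (median -0.98) and 5 of 9 in WLZ3 (median -0.54). Their summed level ranged over 151.4 to 174.5 FPKM in WLZ1, 231.5 to 282.6 FPKM in WLZ3 and 294.5 to 373.6 FPKM in N2. With median-of-ratios scaling 6 of 9 epidermis markers were lower and 1 higher in WLZ1, beside 5064 and 5841 of 14862 genes. In WLZ3 5 were lower under that scaling, beside 3034 genes. Quantile normalization gave 6 lower in WLZ1 and 4 in WLZ3, beside 4061 and 2245 genes. The epidermal collagen dpy-7 averaged 20.9 FPKM in WLZ1, 52.2 in WLZ3 and 78.0 in N2 (-1.88 and -0.565, adjusted p = 2.28e-05 and 0.0323), whereas lin-26, a factor for epidermal fate, stood at 80.1 FPKM in WLZ1, 78.0 in WLZ3 and 75.3 in N2 (0.09 and 0.05, adjusted p = 0.126 and 0.423). Markers of seam cells, the source of alae, were lower for 8 of 9 in WLZ1 (median -1.004) and 2 of 9 in WLZ3 (median -0.25), a share near the 22.7% of all genes, and without wrt-3, which passed only through N2, for 7 and 2 of 8, with sums of 71.5 to 86.6 FPKM in WLZ1, 105 to 127 FPKM in WLZ3 and 154 to 184 FPKM in N2. All 7 tested glia and sensory sheath markers and all 7 tested excretory duct, pore and vulva markers were lower in WLZ1 (medians -1.06 and -1.12), and 4 of each were in WLZ3 (medians -0.44 and -0.40). The glia list holds fig-1, which passed the filter only through N2, and without it the counts were 6 of 6 and 4 of 6. Median-of-ratios scaling left the glia and duct counts as they were, and gave 7 and 2 of 9 for seam. With quantile normalization 6 of 9 seam, 4 of 7 glia and 5 of 7 duct markers were lower in WLZ1. In WLZ3 these counts were 2, 1 and 2, and 1 seam marker was higher. Of all 14862 genes, 4061 were lower in WLZ1 and 2245 in WLZ3 under that scaling. Sums of the glia list were 10.5 to 14.7 FPKM in WLZ1, 21.99 to 24.3 FPKM in WLZ3 and 29.9 to 37.5 FPKM in N2, and those of the duct list 13.8 to 19.1, 28.9 to 29.9 and 36.65 to 44.0 FPKM in WLZ1, WLZ3 and N2.

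Against N2, 41.1% of all tested genes were lower and 26.6% higher in WLZ1, and 22.7% were lower and 13.3% higher in WLZ3. Neuron markers were lower for all 10 in both strains (medians -1.53 and -0.77). Their sums were 49.7 to 56.4 FPKM in WLZ1, 80.5 to 89.3 FPKM in WLZ3 and 126 to 172 FPKM in N2. Body wall muscle markers were lower for all 8 in WLZ1 and 4 of 8 in WLZ3 (medians -1.02 and -0.27), with sums of 543 to 632, 864 to 1122 and 1009 to 1141 FPKM in WLZ1, WLZ3 and N2. With quantile normalization 7 and 3 of 8 muscle markers and 10 and 9 of 10 neuron markers were lower in WLZ1 and WLZ3. Of all 14862 genes, 4061 and 2245 were. With median-of-ratios scaling 1 muscle marker was higher in WLZ3. Intestine markers were lower for 5 of 8 in WLZ1 and 1 of 8 in WLZ3 (medians -0.34 and -0.13), the latter a share below that of all genes. Their sums overlapped at 3030 to 4012, 3106 to 3523 and 3493 to 3834 FPKM in WLZ1, WLZ3 and N2. Median-of-ratios scaling left 2 of 8 intestine markers lower in WLZ1 (median -0.155), beside 5064 of 14862 genes. Quantile normalization gave 3 lower and 1 higher there (median -0.086), beside 4061 and 5270 genes. Markers of the germ line, and of oocytes and early embryos, were higher in WLZ1 for all 10 and all 11 (medians 0.42 and 0.41), and in WLZ3 for 5 and 7 (medians 0.22 each), with the same signs under both other scalings. Germ line sums were 1600 to 1665 FPKM in WLZ1, 1427 to 1470 FPKM in WLZ3 and 1173 to 1314 FPKM in N2, and oocyte and embryo sums 4447 to 4794, 3951 to 4081 and 3452 to 3681 FPKM in WLZ1, WLZ3 and N2. All 3 tested sperm markers were higher in WLZ1 (median 0.38), 1 of which, spe-11, passed the filter only through WLZ1, and in WLZ3 their median was -0.07, which turned to 0.15 with quantile normalization, with sums of 15.6 to 18.1, 5.44 to 12.7 and 5.86 to 7.41 FPKM in WLZ1, WLZ3 and N2. No marker of any list was at 0 in all libraries of a group. The part of these tissue-wide differences in the members' changes was not tested.

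Members were spread over all 6 chromosomes, with 8 on I, 9 on II, 6 on III, 7 on IV, 5 on V and 6 on X. Of the 41, 19 share exon bases with another annotated gene, mostly on the opposite strand, and the sources used here do not state if reads were counted by strand. For cut-3 the shared stretch was 9 bases with evl-20 and for fbn-1 45 bases with upp-1, 0.708% and 0.471% of their exons, and neither partner was called in WLZ1 (0.05 and 0.08, adjusted p = 0.609 and 0.16). T21B10.4, which shares 66 bases with cutl-15, was higher in WLZ1 and WLZ3 than in N2 (0.42 and 0.31, adjusted p = 0.00102 and 0.0138), while cutl-15 was lower in both (-1.71 and -0.59, adjusted p = 3.86e-05 and 0.0286). The WLZ3 call of cutl-15 was lost in 7 of 17 alternatives that tested it, with adjusted p between 0.0512 and 0.104. cpin-1 and T03F7.7, which overlap cutl-17 and cutl-18, were lower in WLZ1, as those members were (-0.51 and -1.07, adjusted p = 0.000823 and 0.000441). So was T04F8.8 (-0.38, adjusted p = 0.0209), which shares 9 bases with cutl-11 and averaged 149.5 FPKM in WLZ1 and 192.9 in N2. cutl-11 was lower in WLZ1 too (-0.925, adjusted p = 0.000417). F10E7.6, which shares 50 bases with cutl-5 and averaged 79.3 FPKM in N2, was not called in WLZ1 (-0.03, adjusted p = 0.81). cutl-1 lies 8834 bases from cut-2 with 3 protein-coding genes between them, and while cut-2 was the most abundant member in N2, cutl-1 was the lowest there.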

How the data were processed

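PolyA RNA of whole worms was sequenced in 9 libraries, 3 each of WLZ1, WLZ3 and N2. Per the submitters' processing notes, fastp 0.23.2, HISAT2 2.2.1, featureCounts 2.0.3 and build WBcel235 were used. The authors deposited FPKM values per gene. The sources used here do not give the exact FPKM formula, the strand setting of counting or the sequencing instrument of each library. The values were tested as log2(FPKM + 1) with limma 3.58.1 (R 4.3.3, intensity trend), on genes that reached 1 FPKM in 3 or more libraries, all 9 libraries in one fit, and p-values were adjusted by Benjamini-Hochberg over 14862 genes within each contrast. The same fit was also run on simulated data, with an outcome that is not given here. FPKM was multiplied by exon length (Ensembl release 115) to recover reads, whole to within 0.01 for 40 of the 41 members (not cutl-20). These reads served only to describe depth, and their precision covers counting error only. Ratios within libraries were compared by exact permutation tests (scipy 1.17.1).

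The members, gene lists and tests were chosen with earlier results of these data known. Values by library were planned for all cut- genes, the members chosen by their own name and the 8 cutl- genes with the highest mean FPKM. Other members were named where they lay at the filter's edge, lacked reads or had one of the 3 largest or smallest changes, and otherwise after their values were seen. Of the context genes, some of the 3 highest of a list and those called against its direction were named, and genes that passed the filter only through 1 group after their values were seen. Of 158 listed context genes, 155 were found. The alternatives were other pseudocounts (0.1 and 0.5), a filter at a mean of 5 FPKM, the unfiltered table, median-of-ratios scaling, quantile normalization, a replicate block, no intensity trend, a fit of only the groups compared, and leaving out each library. Protein and promoter sequences were not analysed here.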

Additional observations from a re-analysis of the deposited data

How the results depend on the processing

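The direction of the member counts was kept in every alternative run: no alternative called a member higher than N2, or lower in WLZ3 than in WLZ1, in limma fits. A filter at a mean of 5 FPKM left 13 members to test and called 12 lower in WLZ1 than in N2, 3 lower in WLZ3 than in N2 and 9 higher in WLZ3 than in WLZ1. Of 9524 genes of all kinds tested under that filter, 3278 were lower in WLZ1, 1877 were lower in WLZ3 and 2468 were higher in WLZ3 than in WLZ1. Quantile normalization gave 4061, 2245 and 2544 of 14862 genes for the same counts, beside 28, 12 and 23 of 34 members. Median-of-ratios scaling called 3007 genes higher in WLZ3 than in N2 and 4205 lower in WLZ3 than in WLZ1. For these shifts in counts of all genes the cause was not tested.

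Leaving out each library in turn gave 31 to 33 members lower in WLZ1 than in N2 and 11 to 23 lower in WLZ3 than in N2. For WLZ3 against WLZ1, 23 to 29 were higher. These fits tested 34 members, or 32 where an N2 library was left out. The count of 11 came without N2 replicate 2 and without N2 replicate 3, beside 1985 of 14479 and 2087 of 14507 genes. Over all genes, 14479 to 14740 were tested. Of these, 5381 to 6044 were lower in WLZ1 than in N2, and 1028 to 2103 were higher and 1985 to 3494 lower in WLZ3 than in N2. Against WLZ1, 3290 to 4530 were higher and 1028 to 1978 lower in WLZ3. Over all 34 tested members and the alternatives run, the sign of a log2 change turned for 3 members, in contrasts where they were not called. cut-4 in WLZ3 minus N2 ranged over -0.12 to 0.192 with each library left out, the lowest without WLZ3 replicate 1. cutl-25 in that contrast ranged over -0.077 to 0.162, and was -0.03 without WLZ3 replicate 2. With quantile normalization, cutl-2 stood at 0.053 in WLZ3 minus N2, and cutl-25 at 0.38 in WLZ1 minus N2 and -0.084 in WLZ3 minus WLZ1.

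Deviations from the group mean correlated at -0.145 to 0.244 between same-numbered libraries of different groups, and at -0.256 to 0.173 between unlike-numbered ones. For WLZ3 with N2 the same-number values were 0.244, 0.035 and 0.137. With 3 libraries a group, each set against its own group mean, such values cannot decide if the numbers pair the samples. Of 34 members, a fit with the replicate block called 33 lower in WLZ1 than in N2 and 16 lower in WLZ3 than in N2. It called 27 higher in WLZ3 than in WLZ1. Over 14862 genes these counts were 5909, 2860 and 3905. For members below about 1 FPKM, few reads limit what can be seen.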
